A study of Mus musculus with 2 samples.

Results

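The metalloproteinase inhibitors described here are 5 genes, *Timp1*, *Timp2*, *Timp3*, *Timp4* and *Reck*, out of 55487 genes in the deposited table. They were chosen by name, as the Timp family plus *Reck*, and each symbol matched 1 Ensembl identifier in the GENCODE M21 annotation of GRCm38. Levels are given in FPKM, fragments scaled to gene length and to the size of the library. The samples were apoptotic osteoblasts from old mice (1 library, treatment label day 5) and from young mice (1 library, treatment label day 0). Both were primary cells grown out of bone pieces, passaged 3 times as marrow stromal cells, kept for 3 days in osteogenic medium and exposed to ultraviolet light for 0.5 h. The labels name no strain, exact age, sex, genotype or number of animals behind a library. Day and age go together, so they cannot be told apart, and with 1 library per age no difference has a replicate check and no test was run.

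Metalloproteinase inhibitors restrain the zinc-dependent enzymes that cut collagen and other extracellular matrix and that shed proteins from the cell surface. The TIMP proteins are small secreted inhibitors that plug the active site of matrix metalloproteinases (MMPs) in tight complexes. RECK is unrelated to them in sequence and is held on the outer cell membrane by a lipid anchor. In bone, osteoblasts and stromal cells make both the inhibitors and the enzymes, and collagen turnover depends on both.

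*Timp3* and *Timp1* were 2 to 3 times as high in the old library as in the young one, whereas *Timp2*, the most abundant of the family in both libraries, and *Reck* were close to even. *Timp4* was barely detected. Of the 5 genes, 4 reached a mean of 1 FPKM over both libraries, the filter used throughout, and *Timp4* did not. At 2-fold on the scale of log2(FPKM + 1), 2 of these 4 were higher in the old library and 0 were lower. Among all 12561 genes past the filter, 1.97% were higher and 0.868% lower by the same measure, and the median log2 ratio was −0.07.

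**Figure D1:**
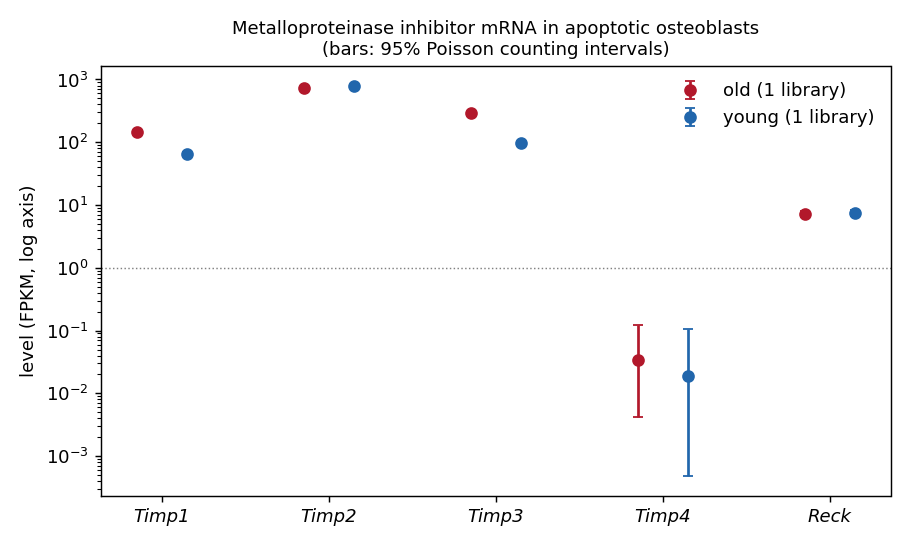
FPKM (log axis) of the 5 inhibitor genes in the old library (red, left of each pair) and the young library (blue), with 95% Poisson counting intervals, which are smaller than the points except for *Timp4*. *Timp1* and *Timp3* stand higher in the old library, *Timp2* and *Reck* lie nearly level, and *Timp4* lies far under the dotted line at 1 FPKM.

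The sequences shown first are the stretches before the annotated starts of *Timp1* and *Timp3*, the pair of members that were higher in the old library. They are RefSeq windows on GRCm38.p6, written 5′ to 3′ along the gene, with capitals for letters matching a searched motif. The *Timp1* stretch is chrX:20869916-20870165 on the plus strand and the *Timp3* stretch is chr10:86300162-86300411 on the plus strand. The third line is a 30-base stretch around a single motif just after the *Timp1* start, chrX:20870180-20870209.
Timp1: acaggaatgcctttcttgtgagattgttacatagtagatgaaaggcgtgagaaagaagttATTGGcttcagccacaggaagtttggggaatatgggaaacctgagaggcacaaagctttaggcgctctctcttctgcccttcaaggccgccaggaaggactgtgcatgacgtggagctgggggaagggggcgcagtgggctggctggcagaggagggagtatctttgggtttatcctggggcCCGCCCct
Timp3: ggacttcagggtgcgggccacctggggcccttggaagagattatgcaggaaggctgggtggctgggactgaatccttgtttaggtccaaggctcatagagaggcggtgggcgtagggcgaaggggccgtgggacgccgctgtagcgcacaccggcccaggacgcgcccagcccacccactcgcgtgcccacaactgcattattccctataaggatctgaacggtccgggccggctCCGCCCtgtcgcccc
Timp1 site: gcggtgggtggaTGAGTAAtgcgtccagga

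Motifs were searched on both strands of the 300-base windows that run from 250 bases before to 50 bases after each start, for the 5 genes and for all 32851 windows in the table. The GC box GGGCGG was found in 4 of the 5 inhibitor windows, all but that of *Timp4*, and in 35.7% of all windows. The CCAAT box was found in the windows of *Timp1*, *Timp2* and *Reck* and in 37.4% of all windows. TGAGTAA, a variant of the AP-1 motif, was found once, 27 bases into *Timp1*, and in 2.68% of all windows. It was added to the search after this window had been seen, because such a site is known from work on the mouse *Timp1* promoter. The AP-1 consensus TGANTCA (7.81% of all windows), a STAT motif TTCNNNGAA (8.3%), the interferon-stimulated response element (3.44%) and TATAAA (13.6%) were in none of the 5. The RefSeq start of *Timp3* lies 40 bases inside the GENCODE gene, so the end of its stretch is transcribed in that annotation. The RefSeq start of *Timp2* lies 329 bases inside its GENCODE gene, so its whole window, with the GC and CCAAT boxes found there, falls within that gene. A letter match is a description of the window, not evidence of binding.

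*Timp1* encodes a secreted glycoprotein that inhibits most soluble MMPs and, poorly, the membrane-bound ones. The gene (ENSMUSG00000001131) lies on chromosome X, 20870166 to 20874735 on the plus strand, inside *Syn1*, a neuronal synapsin gene on the opposite strand. Its level was 143 FPKM in the old library, on 2224 reads, and 65.2 FPKM in the young library, on 914 reads. The ratio, old over young, was 2.19 with a 95% counting interval of 2.03 to 2.37, and the log2 ratio of FPKM + 1 was 1.12. *Timp1* ranked 203 of 12561 genes by log2 ratio, from high to low. By level it stood at place 730 of all genes in the old library and place 1995 in the young. Counting intervals cover counting error only, and PCR copies are not independent molecules. In bulk RNA, more cells that express a gene and more RNA per cell cannot be told apart.

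*Timp3* encodes the member that stays bound to the extracellular matrix, and besides MMPs it inhibits the sheddase ADAM17 and aggrecan-cutting ADAMTS enzymes. The gene (ENSMUSG00000020044) lies on chromosome 10, 86300372 to 86349506 on the plus strand, inside *Syn3* on the opposite strand. Its level was 290.2 FPKM in the old library, on 11981 reads, and 98.2 FPKM in the young library, on 3654 reads. The ratio was 2.96 (2.85 to 3.07) and the log2 ratio 1.55, which ranked 85 of 12561. The counting intervals of *Timp3* and *Timp1* did not overlap, so the *Timp3* difference was the larger one between these libraries. *Timp3* stood at place 312 by level in the old library and place 1183 in the young. Exons of *Syn3* cover 21.3% of the *Timp3* exon bases, and use of strand in counting is not given in the sources used here. *Syn3* itself had 5 reads in the old library and 2 in the young.

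*Timp2* encodes an inhibitor with a second role, since it bridges the membrane enzyme MMP14 and the inactive form of MMP2 in a complex that activates MMP2. The gene (ENSMUSG00000017466) lies on chromosome 11, 118301069 to 118355740 on the minus strand. Its level was 742 FPKM in the old library, on 29763 reads, and 800.1 FPKM in the young library, on 28934 reads. The ratio was 0.928 (0.913 to 0.943) and the log2 ratio −0.11. The counting interval lies below 1, but the log2 ratio is close to the all-gene median and ranked 7099 of 12561. *Timp2* was at place 123 of all genes by level in the old library and place 109 in the young.

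*Reck* encodes the membrane-anchored inhibitor of MMP2, MMP9 and MMP14, which also acts with the receptor ADGRA2 in sensing WNT7 ligands. The gene (ENSMUSG00000028476) lies on chromosome 4, 43875530 to 43944806 on the plus strand. Its level was 7.19 FPKM in the old library, on 405 reads, and 7.50 FPKM in the young library, on 381 reads. The ratio was 0.958 (0.831 to 1.11), an interval that includes 1, and the log2 ratio was −0.05, or 0.01 after centring on the median of all genes. Per length, *Timp2* was 103 times the level of *Reck* in the old library and 107 times in the young. These ratios depend on the length each gene is given. With the longest annotated transcript as length, *Timp2* was at 443 in the old library and 478 in the young. *Reck* was then at 4.91 in the old library and 5.13 in the young.

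*Timp4* encodes the member with the narrowest tissue range, known from heart and fat. The gene (ENSMUSG00000030317) lies on chromosome 6, 115241892 to 115252205 on the minus strand, inside *Syn2* on the opposite strand. It had 2 reads in the old library, 0.0343 FPKM with a counting interval of 0.00415 to 0.124 FPKM. In the young library it had 1 read, 0.0190 FPKM with an interval of 0.000481 to 0.106 FPKM. Both counts are under the floor of 3 reads, so no ratio is given. Defining fat cell markers were also near 0, with *Adipoq* at 1 read in the old library and 0 in the young.

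**Figure D2:**
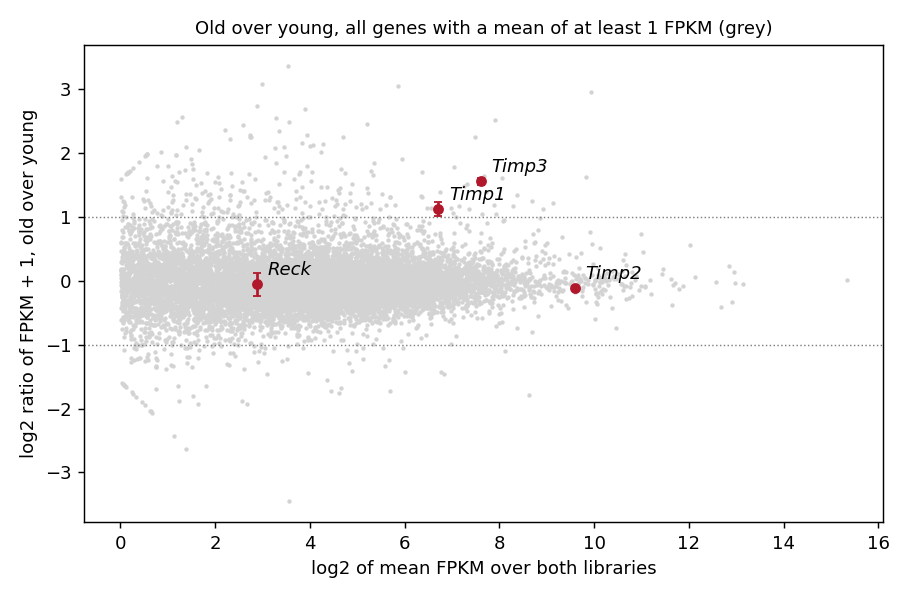
Old over young log2 ratio (FPKM + 1), plotted against the log2 mean FPKM of all 12561 genes past the filter (grey), with the 4 inhibitors past it in red and 95% counting intervals as bars. Dotted lines mark 2-fold; *Timp3* (1.55) and *Timp1* (1.12) lie above the upper line, and *Timp2* (−0.11) and *Reck* (−0.05) lie near 0.

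Within each library the levels ran *Timp2*, *Timp3*, *Timp1*, *Reck*, *Timp4* from high to low, and no neighbours in this order had overlapping counting intervals. *Timp2* was at 2.56 times the level of *Timp3* in the old library and at 8.15 times in the young. Summed over the 4 Timp genes the level was 1175 FPKM in the old library and 964 FPKM in the young. *Timp2* made up 63.1% of this sum in the old library and 83.0% in the young. *Timp3* made up 24.7% in the old and 10.2% in the young, and *Timp1* 12.2% in the old and 6.77% in the young. The summed difference therefore lay in *Timp3* and *Timp1*, since *Timp2* was lower by FPKM in the old library.

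The order of *Timp3* and *Timp1* depends on the length each gene is given. The deposited values fit the mean length of the annotated transcripts, which for *Timp3* is 2279 bases over 4 transcripts between 352 and 4722 bases. For *Timp1* it is 858 bases, with 2 transcripts of 833 and 883 bases. With the longest transcript as the length, *Timp3* was at 140.1 and *Timp1* at 139 in the old library, while in the young library *Timp3* was at 47.4 and *Timp1* at 63.4. The young order was thus turned round and the old levels became nearly equal, while the ratios between libraries do not depend on length. *Timp2* stayed the highest, with 61.3% of the sum in the old library and 81.2% in the young.

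**Figure D3:**
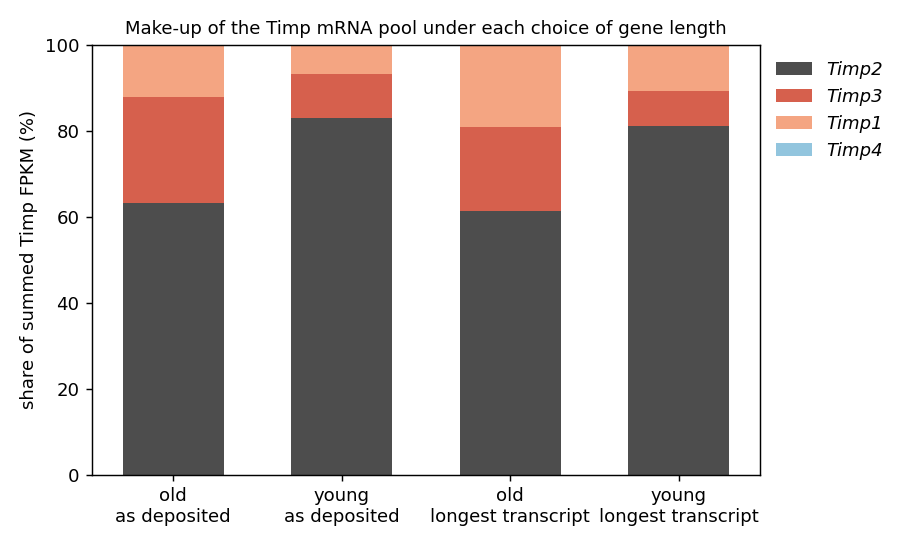
Share of the summed Timp FPKM held by each gene, in percent, for the old and the young library with lengths as deposited (left pair) and with the longest annotated transcript as length (right pair). In both pairs *Timp2* fills less of the old bar (63.1% and 61.3%) than of the young bar (83.0% and 81.2%), and *Timp4* is too small to see.

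The enzymes that the inhibitors bind were compared from lists of their own. Each list is to be read beside all genes past the filter. Of those, 1.97% were 2-fold higher and 0.868% lower, with a median log2 ratio of −0.07. Of 23 MMP genes, 9 passed the filter and 9 had no read in either library. *Mmp2*, the gelatinase that *Timp2* helps to activate, was at 1224 FPKM in the old library and 1149 FPKM in the young, a ratio of 1.07 (1.05 to 1.08). *Mmp14*, the membrane enzyme of the same complex, was at 412 FPKM in the old and 376 FPKM in the young library, a ratio of 1.10 (1.06 to 1.13). All 3 genes of that complex were thus abundant and within 1.5-fold of even. *Mmp2* held 69.0% of summed MMP FPKM in the old library and 70.1% in the young.

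Of the 17 MMPs listed as secreted, 7 passed the filter, with 1 above and 1 below 2-fold, and the median log2 ratio was 0.06. *Mmp19*, which cuts basement membrane proteins, was at 30.7 FPKM in the old library and 10.5 FPKM in the young, a log2 ratio of 1.47. Exons of other genes cover 28.3% of its exon bases. *Mmp13*, the main collagenase of mouse bone, was at 5.84 FPKM in the old library and 15.3 FPKM in the young, a log2 ratio of −1.25. With a pseudocount of 5 this was −0.90, short of 2-fold. *Mmp9*, the other gelatinase, was at 29.5 FPKM in the old and 16.5 FPKM in the young library, a log2 ratio of 0.80. *Mmp23* rested on 16 reads in the old and 21 in the young library. Of the 6 membrane-type MMPs, 2 passed, *Mmp14* and *Mmp16*, and neither reached 2-fold. *Mmp16* was at 20.2 FPKM in the old library and 13.0 FPKM in the young.

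Summed Timp FPKM over summed MMP FPKM was 0.663 in the old library and 0.588 in the young, so that the old ratio was 1.13 times the young (counting interval 1.10 to 1.15). With the longest transcript as length the values were 0.875 in the old and 0.768 in the young library. These are ratios of mRNA levels, and neither protein nor enzyme activity was measured.

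The ADAM and ADAMTS enzymes bound by TIMP3 had 8 of 10 genes past the filter, none at 2-fold in either direction, and a median log2 ratio of 0.15. *Adam17*, the sheddase that releases tumour necrosis factor, was at 25.1 FPKM in the old library and 24.1 FPKM in the young. *Adam12* was at 7.52 FPKM in the old and 4.03 FPKM in the young library, a log2 ratio of 0.76. *Adamts5*, an aggrecan-cutting enzyme, was at 1.29 FPKM in the old and 2.09 FPKM in the young library, a log2 ratio of −0.43. *Adam19* and *Adamts1* had log2 ratios of 0.34 and 0.26.

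Among the 8 partners that bind or take up TIMPs, 5 passed the filter. Of these, 1 exceeded 2-fold upward and 0 downward, around a median log2 ratio of 0.06. *Lrp1*, the endocytic receptor that clears TIMPs and MMPs from outside the cell, was at 786 FPKM in the old library and 337 FPKM in the young, a log2 ratio of 1.22. *Cd63*, a tetraspanin that binds TIMP1, was at 671 FPKM in the old and 689.9 FPKM in the young library, with 26.7% of its sequence words shared with other genes. *Cd44*, a hyaluronan receptor that anchors MMP9, and the integrin *Itga3* had log2 ratios of 0.32 and 0.06. For RECK signalling, 3 of 6 genes passed, none at 2-fold, with a median of 0.14. *Adgra2* was at 46.7 FPKM in the old and 38.5 FPKM in the young library, and the co-receptors *Lrp6* and *Lrp5* had log2 ratios of 0.14 and 0.06. *Wnt7a* and *Wnt7b*, the ligands, had 0 reads in both libraries.

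Other inhibitors and regulators of metalloproteinases had 4 of 10 genes past the filter, none at 2-fold, and a median of −0.04. *Pcolce*, an enhancer of procollagen processing, was at 807 FPKM in the old library and 899 FPKM in the young. *Fetub*, an inhibitor of astacin-type metalloproteinases, was at 2.27 FPKM in the old and 1.44 FPKM in the young library, and the testican *Spock2* and the *Pcolce* relative *Pcolce2* had log2 ratios of −0.06 and −0.03. *A2m*, a broad protease trap of blood plasma, had 0 reads in both. Activators of pro-MMPs had 5 of 8 genes past the filter, none at 2-fold, and a median of −0.19. The convertase *Pcsk7*, the plasminogen activator *Plat* and the urokinase receptor *Plaur* had log2 ratios of −0.28, −0.21 and −0.19, and *Furin*, the convertase that activates membrane-type MMPs, had 0.14.

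Factors known to drive *Timp1* transcription had 16 of 18 genes past the filter, 3 beyond 2-fold upward and 0 downward, with a median log2 ratio of 0.31. Over all genes past the filter, 1.97% were higher and 0.868% lower, with a median of −0.07. The part of these factors in the *Timp1* difference was not tested. *Fosl1*, an AP-1 subunit, was at 28.0 FPKM in the old library and 5.68 FPKM in the young, with 57.2% of its exon bases overlapped by *Ccdc85b*. *Cebpb*, an inflammation-linked transcription factor, was at 177 FPKM in the old and 84.7 FPKM in the young library, with 20.7% overlapped. The cytokine *Il6* was at 3.64 FPKM in the old library, on 84 reads, and 1.25 FPKM in the young, on 26 reads, and its log2 ratio of 1.04 was 0.47 at a pseudocount of 5. Other AP-1 subunits went both ways, with *Fosl2* at a log2 ratio of 0.69, *Jun* at 0.02, *Fos* at −0.58 and *Junb* at −0.66. Apart from *Fosl2*, these were named after their values were seen.

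**Figure D4:**
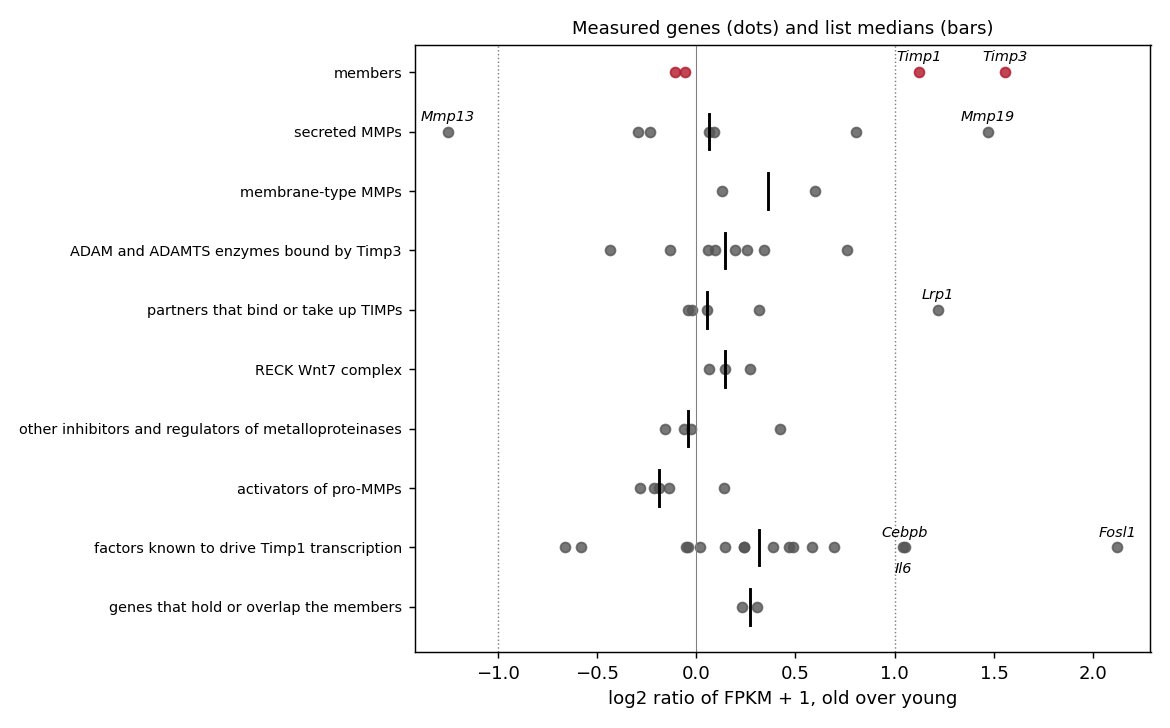
Old over young log2 ratio (FPKM + 1) of the measured inhibitors (red) and of measured genes of 9 related lists (grey), with a bar at each list median and dotted lines at 2-fold. *Timp1*, *Timp3*, *Mmp19*, *Lrp1*, *Fosl1*, *Cebpb* and *Il6* lie beyond 2-fold on the higher side and *Mmp13* on the lower side.

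Genes around the inhibitors did not share one direction. *Syn1*, which holds *Timp1*, was at 3.70 FPKM in the old library and 3.01 FPKM in the young. The nearest measured coding genes beside *Timp1* were the kinase gene *Araf*, at 31.5 FPKM in the old and 38.8 FPKM in the young library, and *Cfp*, which encodes the complement factor properdin, at 4.17 FPKM in the old and 9.19 FPKM in the young. Beside *Timp2*, *Lgals3bp* was at 431 FPKM in the old library and 192 FPKM in the young, a log2 ratio of 1.16, while *Cep295nl*, inside *Timp2*, had 0.31. The nearest such genes to *Timp3* were *Fbxo7*, 248499 bases away on 1 side, and *Hsp90b1*, 340703 bases away on the other. Their log2 ratios were 0.08 and 0.14. The genes beside the inhibitors were chosen by position after the values of the inhibitors were known.

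The genes nearest to each inhibitor in level were found by distance over the pair of log2(FPKM + 1) values, which is a likeness over only 2 libraries. Nearest to *Timp3* was *Lgals3*, the lectin galectin-3, at 309 FPKM in the old and 98.3 FPKM in the young library (distance 0.09). Next was *Gas1*, a hedgehog co-receptor, at 303 FPKM in the old and 116 FPKM in the young (distance 0.25). Nearest to *Timp1* was the receptor *Axl*, at 155 FPKM in the old and 58.4 FPKM in the young library (distance 0.19). Next was *mt-Atp6* (distance 0.20), whose sequence words are wholly shared with other genes. *Timp2* lay nearest to *Hnrnpa2b1* and *Rpl11*, and *Reck* to *Tmem161b* and *Spidr*.

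The read totals that fit the FPKM values were 18114336 in the old library and 16333396 in the young. Of 6 osteoblast markers, 5 passed the filter, none at 2-fold, 1 with a log2 ratio above 0, and the median was −0.34. *Col1a1* was at 6788 FPKM in the old and 8568 FPKM in the young library, *Runx2* at 72.7 FPKM in the old and 92.1 FPKM in the young, and *Sp7* at 28.9 FPKM in the old and 55.5 FPKM in the young. *Ibsp* was at 5.90 FPKM in the old and 6.31 FPKM in the young library, and *Alpl* at 3.28 FPKM in the old and 2.78 FPKM in the young. *Bglap*, the late marker osteocalcin, had 6 reads in the old and 3 in the young library, but 55.2% of its sequence words are shared with other genes, so its count is uncertain. Marrow stroma markers had 4 of 5 genes past the filter, all with log2 ratios above 0, and summed to 425 FPKM in the old library and 203 FPKM in the young. *Cxcl12* was at 201 FPKM in the old and 113 FPKM in the young library, *Pdgfra* at 88.1 and 59.0, and *Thy1* at 31.1 and 18.3. *Ly6a* was at 105 FPKM in the old and 11.9 FPKM in the young library, a log2 ratio of 3.04 that ranked 3 of 12561. *Lepr* did not pass, with 11 reads in the old library and 10 in the young. The part of the osteoblast and stroma markers in the *Timp1* and *Timp3* differences was not tested. Macrophage markers had 2 of 5 genes past the filter and summed to 22.9 FPKM in the old and 25.9 FPKM in the young library. *Lyz2* was at 18.4 FPKM in the old and 21.3 FPKM in the young library. *Cd68* was at 4.36 FPKM in the old and 4.51 FPKM in the young. *Adgre1* had 0 reads in both, *Ptprc* 0 in the old and 1 in the young, and *Csf1r* 6 in the old and 1 in the young. Endothelial, neutrophil, erythroid and fat cell markers had no gene past the filter, and each of these lists summed to under 1 FPKM in both libraries. Of the cartilage markers, *Sox9* was at 51.0 FPKM in the old and 44.9 FPKM in the young library, *Col2a1* at 46.8 FPKM in the old and 53.3 FPKM in the young, and *Acan* at 0 reads in both.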

How the data were processed

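The authors deposited 1 FPKM value per gene and library. The submitters' processing notes name the build mm10 and the tools STAR, HTSeq, fastp and edgeR; for roles, versions, filters and strand, no information is given in the sources used here. Symbols and positions came from GENCODE M21, which held 55227 of 55487 identifiers. Read numbers were worked out from the FPKM steps: with the rounded mean transcript length of each gene, 97.6% of values above 0 came out whole within 0.01. Ratios of single genes carry exact 95% Clopper-Pearson counting intervals and levels exact Poisson intervals. The Timp to MMP ratio carries an approximate 95% counting interval, from a normal approximation on the log scale. A floor of 3 reads was used. The log2 ratio used a pseudocount of 1, which understates differences of low genes, and a mean of at least 1 FPKM. Totals, reads and ratios were tested on simulated data. These were made with the same gene lengths as used to work out the reads, so the lengths themselves could not be checked. Each simulated total was the sum of its simulated reads, so what the deposited totals count could not be checked either. Named list genes are the up to 4 with the largest absolute log2 ratio in each list; for each inhibitor the 2 nearest coding genes are named, and other genes were named after their values were seen or as defining markers. Shared sequence was searched with words of 50 bases taken every 25. The inhibitors and lists were chosen with earlier results of these data known. With 1 library per age there was no test and no pairing. Python 3.11.15, numpy 2.4.6, pandas 2.3.3 and scipy 1.17.1 were used.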

Additional observations from a re-analysis of the deposited data

How the results depend on the processing

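Log2 ratios of *Timp1*, *Timp2*, *Timp3* and *Reck* were recomputed at pseudocounts of 0.1 and 5, without the 10 most abundant genes, as TPM, and centred on the all-gene median of −0.07. *Timp1* and *Timp3* stayed above 2-fold under these 5 settings. Centring moved *Timp3* to 1.62 and *Timp2* to −0.043, by more than counting error; *Reck* was then at 0.01, within its counting interval. *Timp4* has too few reads for a ratio. Of all 12561 genes past the filter, 248 were 2-fold higher and 109 lower in the old library. A pseudocount of 0.1 gave 408 higher and 236 lower, and a pseudocount of 5 gave 101 higher and 20 lower. A filter of 10 FPKM gave 106 higher and 27 lower. That filter leaves fewer genes to count, so its counts do not show a change in share. Of the 52 genes past the filter in the 9 related lists, 5 were 2-fold higher and 1 lower. The shares over all genes past the filter were 1.97% higher and 0.868% lower. At a pseudocount of 5 the lower count in the lists was 0 (*Mmp13* at −0.90), and *Il6* was at 0.47. The Timp to MMP ratio, old over young, was 1.14 with only the MMPs listed as secreted, 1.13 with *Reck* added and 1.14 with longest transcripts. The setting with longest transcripts was chosen after seeing the data. No paired analysis was possible because each age has 1 library. Depth limits *Timp4*, and with 1 library per age the spread between cultures or animals is unknown.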
